A study of Mus musculus with 2 samples.

Results

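Immediate-early transcription factor genes are switched on within minutes of a growth signal or stress, without new protein synthesis. The 10 genes followed here were chosen by symbol: the Fos and Jun family genes Fos, Fosb, Fosl1, Jun, Junb and Jund, the zinc finger genes Egr1 and Egr2, Ier2, and Atf3. All 10 were found, among 43346 genes with an Ensembl identifier in the gene tables. Of these genes 21474 were protein-coding. The measurements were total RNA-seq of ES-E14 cells, a mouse embryonic stem cell line (129/Ola, male). There was a single group with 2 libraries, biological replicates 1 and 2 by their labels. Both name the same source sample, and nothing places them in separate cultures, so their spread may be only technical. The labels give no treatment, genotype change or passage. With 1 group, no comparison of conditions and no p-value was possible.

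Fos and Jun proteins share a basic leucine zipper, with which they pair and bind DNA as the AP-1 factor. Jun proteins can pair with each other, whereas Fos proteins need a Jun partner. Growth signals reach Fos and Egr1 through ERK kinases and the factors SRF and ELK, and reach Fos and Atf3 also through CREB-type factors. Many of these transcripts are short-lived, in part because of AU-rich elements, runs of ATTTA in the 3' untranslated region that recruit decay proteins. In embryonic stem cells, FGF signalling through ERK is known to favour exit from self-renewal.

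Depth was 43163300 and 45573512 expected counts on genes, with 5007 and 6297 of them on the 10 genes. Values are in TPM, a length-corrected share of all transcripts, with the SD over n = 2 libraries, in the order replicate 1, replicate 2. Protein-coding genes held 19.4% and 23.8% of summed TPM. TPM rescaled to nuclear protein-coding genes was 5.36 and 4.37 times larger. The models Gm26917 and Gm42418, which are known to collect ribosomal RNA reads, took 26.4% and 16.4% of counts. All 8 pluripotency markers were above 1 TPM in both libraries, led by Dppa5a at 613.37 and 597.01 TPM, Tdgf1 at 318.39 and 197.95 TPM and Pou5f1 at 162.43 and 201.07 TPM. The lowest of the 8 by mean was Nanog at 17.19 and 31.91 TPM.

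The promoters of 5 of the genes are shown first, because the genes differ in the matches found in these windows to sites for the factors named above. They are the highest gene, Junb, Jun and Atf3, which had the largest TPM ratios between the libraries among genes with a promoter here, the prototype Fos, and the lowest gene, Egr2. Each is the 250 bases before the RefSeq start site on GRCm38.p6, the assembly of mm10, read on the gene's own strand. Capitals mark matches on either strand to the motifs searched. These were the CArG box bound by SRF, the cyclic AMP response element (TGACGTCA), and its shorter form, which is its first bases (TGACG). Variants of it (TGACATCA and also TTACGTCA) were searched as well, as were the AP-1 site (TGANTCA), the EGR site (GCGNGGGCG) and the TATA box (TATAAA). The short form lies within the full element, and on the other strand within the second variant. Positions count back from the start site to a match's leftmost base. The regions are chr8:84978749-84978998 (minus strand) for Junb, chr4:95052223-95052472 (minus) for Jun, chr1:191183334-191183583 (minus) for Atf3, chr12:85473640-85473889 (plus) for Fos and chr10:67537619-67537868 (plus) for Egr2, which has 5 RefSeq starts.
Junb: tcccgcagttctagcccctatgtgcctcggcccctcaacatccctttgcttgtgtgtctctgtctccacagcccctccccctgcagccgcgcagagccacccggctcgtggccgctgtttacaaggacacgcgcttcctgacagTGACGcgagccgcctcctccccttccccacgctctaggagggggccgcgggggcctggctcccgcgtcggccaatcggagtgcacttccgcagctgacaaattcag
Jun: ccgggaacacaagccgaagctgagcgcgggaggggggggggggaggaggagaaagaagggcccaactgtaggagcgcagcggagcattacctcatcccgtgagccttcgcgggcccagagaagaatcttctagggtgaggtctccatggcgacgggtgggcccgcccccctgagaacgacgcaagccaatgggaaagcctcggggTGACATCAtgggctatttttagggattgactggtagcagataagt
Atf3: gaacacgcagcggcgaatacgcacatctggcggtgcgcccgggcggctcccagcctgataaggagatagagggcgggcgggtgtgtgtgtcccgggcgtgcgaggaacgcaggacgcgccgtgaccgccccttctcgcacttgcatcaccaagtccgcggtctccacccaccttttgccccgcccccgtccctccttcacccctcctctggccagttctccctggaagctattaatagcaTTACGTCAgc
Fos: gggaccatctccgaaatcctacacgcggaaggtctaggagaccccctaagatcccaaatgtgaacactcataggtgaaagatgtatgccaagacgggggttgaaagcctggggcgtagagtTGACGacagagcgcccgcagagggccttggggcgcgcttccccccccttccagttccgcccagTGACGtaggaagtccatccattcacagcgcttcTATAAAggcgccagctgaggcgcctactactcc
Egr2: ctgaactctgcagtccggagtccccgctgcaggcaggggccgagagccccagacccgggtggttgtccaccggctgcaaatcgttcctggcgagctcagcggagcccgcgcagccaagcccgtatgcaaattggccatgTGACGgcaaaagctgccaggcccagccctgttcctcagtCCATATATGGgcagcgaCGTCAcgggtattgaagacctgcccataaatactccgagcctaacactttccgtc

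With Fosb, 6 genes had a RefSeq promoter whose start lay within 100 bases of that of the leading transcript. TGACG was the motif most of them shared, in 5 of 6, against 17.7% of 32817 promoter windows of the same length. Fos held it at -129 and -66 from the start site, Junb at -106, Fosb at -60, Atf3 at -7 within TTACGTCA, and Egr2 at -111 and -55. Jun held TGACATCA at -45, found in 2.93% of windows, and Atf3 held TTACGTCA at -10, found in 0.445%. Among these 6 windows a CArG box was found in Egr2 only, at -72, and in 1.47% of all windows. Bases further than 250 from the start site were not searched, so a site there, in Fos or another gene, would be missed. Egr1 was not among the 6 genes. Fos had a TATA box at -33 (12.4% of windows) and Fosb an EGR site at -50 (4.70%), while none of the 6 held the full TGACGTCA (1.55%) or the AP-1 site (6.75%). A match describes letters in the window and shows no binding. TGACATCA and TTACGTCA were added to the search after the sequences had been seen.

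Of the 10 genes, 6 were at 1 TPM or more in both libraries, against 46.3% of 21474 protein-coding genes. Junb, Ier2 and Jund formed a top group, followed by Jun, Fos and Egr1. Atf3 passed in replicate 2 only, and Fosb, Fosl1 and Egr2 in neither. Rescaled to nuclear protein-coding genes, 8 passed in both, with Fosl1 and Egr2 left below, against 59.2% of protein-coding genes.

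**Figure D1:**
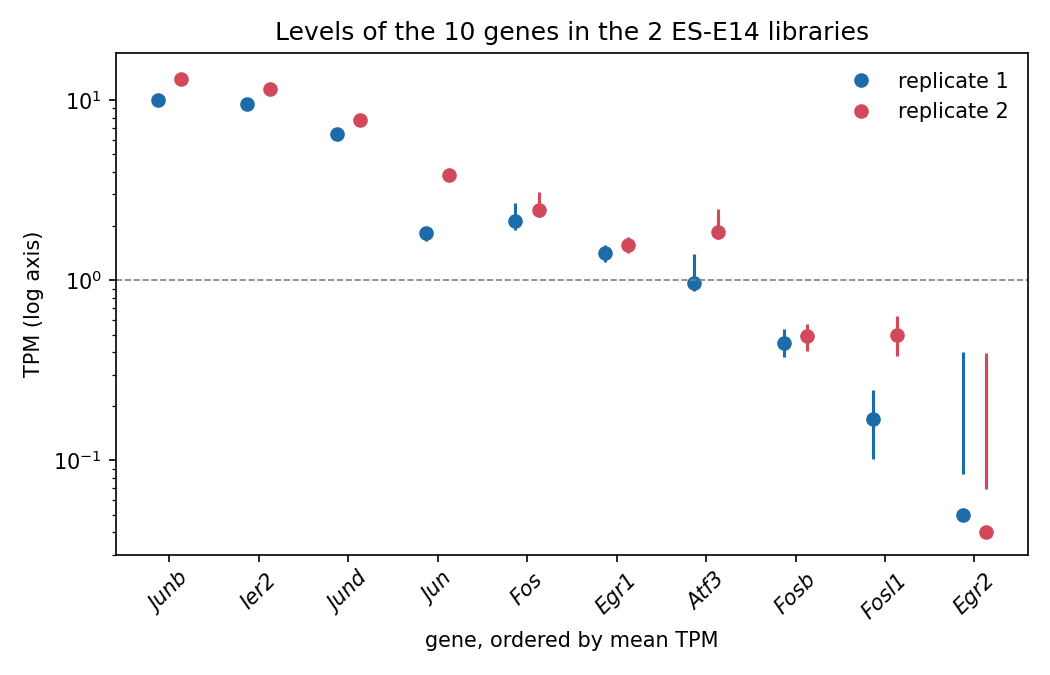
TPM of each gene (log axis) in replicate 1 (blue) and replicate 2 (red), ordered by mean; vertical lines are the interval bounds deposited by the authors and the dashed line is 1 TPM. Junb, Ier2 and Jund lie above the other 7 genes in both libraries, and for Egr2 the point lies under its interval, which starts at 0.0839 and 0.0698 TPM.

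Among the AP-1 partners of the Jun family, Junb (ENSMUSG00000052837.5; chromosome 8, 84974484 to 84978718, mm10) was highest. Junb, often an antagonist of Jun in growth control, stood at 9.99 and 13.07 TPM, or 11.5 ± 2.18 TPM (SD, n = 2), from 1307 and 1627 counts. These values put it above 84.9% and 86.0% of protein-coding genes. Jund (ENSMUSG00000071076.5; chromosome 8, 70698949 to 70700616), the family member known for steady expression in resting cells, stood at 6.45 and 7.73 TPM from 1363 and 1557 counts. Jun (ENSMUSG00000052684.4; chromosome 4, 95049034 to 95052222), the family's founding member and the main target of JNK kinases, stood at 1.82 and 3.85 TPM from 428 and 864 counts. Jun was thus the lowest of the family in both libraries, and the one with the largest ratio between them, at 2.12.

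The level of Jund depends on its transcript model. The deposited model is 2878 bases long and the M21 model 1668, a difference of 1210 bases. The RefSeq start of Jund lies the same 1210 bases before the M21 start. If all its reads lay in the M21 model, Jund would stand at 12.8 ± 1.64 TPM and pass Junb, which would stand at 11.7 ± 2.22 TPM. This is the upper end, since reads in the extra bases cannot be separated here. For the other members whose lengths differed, Fosb and Fosl1, the same step gave means of 0.466 and 0.304 TPM.

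In the Fos family, Fos (ENSMUSG00000021250.9; chromosome 12, 85473890 to 85477273) stood at 2.14 and 2.46 TPM from 260 and 279 counts. The deposited interval was 1.90 to 2.69 TPM in replicate 1 and 2.24 to 3.08 TPM in replicate 2, so the libraries overlapped. Fosb (ENSMUSG00000003545.2; chromosome 7, 19302696 to 19310051), which in brain also gives a long-lived shortened protein, stood at 0.45 and 0.49 TPM from 127 and 130 counts. Fosl1 (ENSMUSG00000024912.5; chromosome 19, 5447547 to 5455946) encodes FRA-1, itself a known AP-1 target, and stood at 0.17 and 0.50 TPM from 20 and 57 counts. Its level is uncertain, because 1163 of its 1864 exonic bases overlap Ccdc85b on the opposite strand, which had 84 and 122 counts, and the sources used here do not say whether reads were counted by strand. Jun and Jund overlap antisense models over 232 and 543 bases that held at most 10 and 68 counts.

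Jun-family transcripts outnumbered those of the Fos family in both libraries. Junb, Jund and Jun summed to 18.26 and 24.65 TPM, and Fos, Fosb and Fosl1 to 2.76 and 3.45 TPM, a ratio of 6.62 and 7.14. With the fourth Fos-family gene, Fosl2, at 1.29 and 3.20 TPM, the ratio was 4.51 and 3.71. Fosl2, which encodes FRA-2, was chosen after its values were seen. Within the Jun family Junb took 54.7% and 53.0%, Jund 35.3% and 31.4% and Jun 9.97% and 15.6% of the sum. Among the 3 Fos genes, Fos took 77.5% and 71.3%, Fosb 16.3% and 14.2% and Fosl1 6.16% and 14.5%. The shares of Jun and Fosl1 were higher in replicate 2, and those of the other 4 genes were lower.

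**Figure D2:**
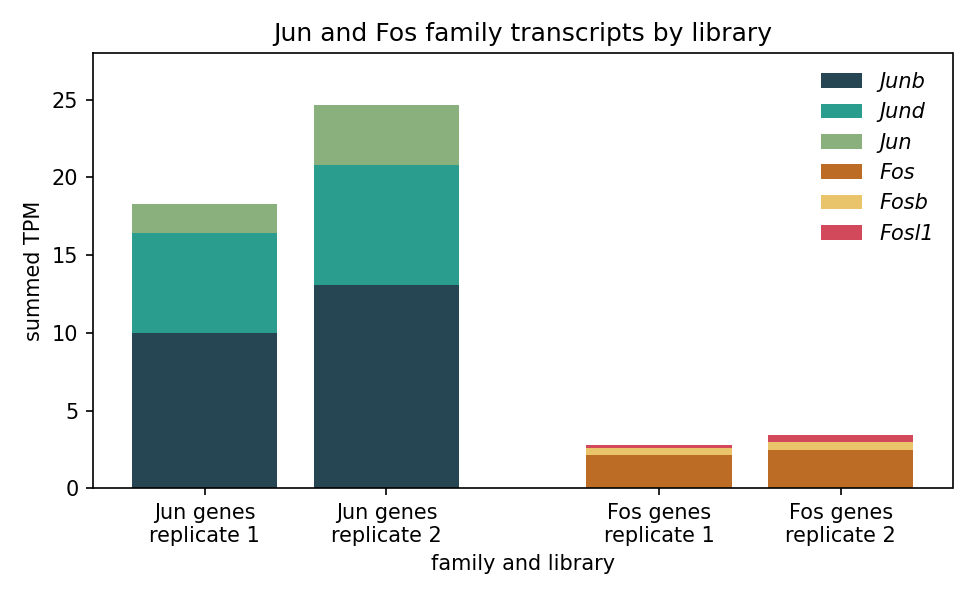
Summed TPM of Junb, Jund and Jun (left bars) and of Fos, Fosb and Fosl1 (right bars) in each library, stacked by gene. The Jun sums, 18.26 and 24.65 TPM, stand above the Fos sums, 2.76 and 3.45 TPM, and Junb is the largest block in both.

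Outside the Fos and Jun families, Ier2 (ENSMUSG00000053560.4; chromosome 8, 84661331 to 84662852), a growth-factor-induced nuclear protein without a classical DNA-binding domain, stood at 9.48 and 11.5 TPM from 1006 and 1160 counts. Egr1 (ENSMUSG00000038418.7; chromosome 18, 34859823 to 34864984), a zinc finger factor that reports ERK activity in many cells, stood at 1.42 and 1.58 TPM from 347 and 366 counts. Its relative Egr2 (ENSMUSG00000037868.11; chromosome 10, 67535475 to 67542188), required for hindbrain patterning and myelination, was nearly undetected at 0.05 and 0.04 TPM. It had 11 and 8 counts. Egr1 thus made up 96.6% and 97.5% of the summed TPM of both Egr genes. Atf3 (ENSMUSG00000026628.9; chromosome 1, 191170296 to 191218039), a stress-induced leucine zipper repressor, stood at 0.97 and 1.86 TPM from 138 and 249 counts.

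Neighbours in the order were not all separated by the spread. Junb and Ier2 overlapped in range, though Junb was higher in each library. Jun and Fos changed order, with Fos higher in replicate 1 and Jun in replicate 2. The same was true of Egr1 and Atf3, and of Fosb and Fosl1. Ier2 against Jund, Jund against Jun, Fos against Egr1, Atf3 against Fosb, and Fosl1 against Egr2 did not overlap. With the M21 model length, Jund would stand at up to 11.6 and 13.9 TPM and pass Ier2 in both libraries. With 2 libraries this orders the values and tests nothing.

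By share of counts, 3 of the 10 genes stood above the typical gene in replicate 2 beyond counting error, and for the other 7 no departure from it was detectable beyond that error. Each gene's share of expected counts in replicate 2 was set against that in replicate 1, with an exact Clopper-Pearson interval that covers counting error only. The median over 12791 protein-coding genes with 50 or more counts in a library was 0.17 on the log2 scale. Fosl1 stood at 1.43 (95% interval 0.68 to 2.25), Jun at 0.94 (0.77 to 1.11) and Atf3 at 0.77 (0.47 to 1.08), and these 3 intervals lay wholly above that median. Junb stood at 0.24 (0.13 to 0.34), Ier2 at 0.13, Jund at 0.11 (0.01 to 0.22) and Fos at 0.02 (-0.23 to 0.27). Egr1 stood at -0.00148, Fosb at -0.04 and Egr2 at -0.54 (-2.06 to 0.91), and the intervals of these 7 genes held the median.

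These counts need the background. Among the 12791 genes, 35.6% had an interval wholly above the median and 37.2% wholly below, so 3 of 10 above is near the background and is no result about the 10 genes. The interval held the median in 27.2% of genes, and genes with few counts have wide intervals. Jun lay above 92.6%, Atf3 above 88.8% and Fosl1 above 97.2% of these genes. Fos lay above 38.7%, Egr1 above 36.9% and Fosb above 34.0%. In all, 6.33% of these genes stood 2-fold or more higher in replicate 2 by share of counts, and Fosl1 alone of the 10 did, at 2.70-fold.

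**Figure D3:**
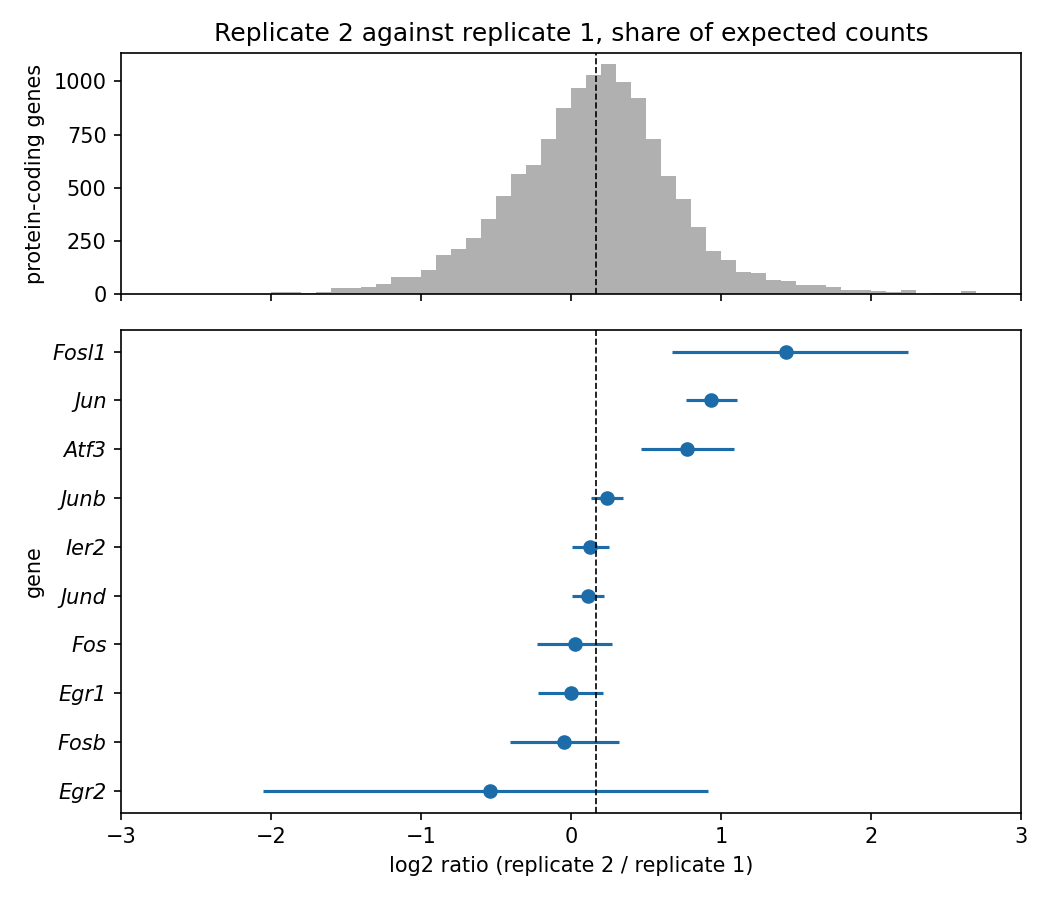
Top, histogram of the log2 ratio of shares of expected counts (replicate 2 over replicate 1) for protein-coding genes with 50 or more counts in a library; genes beyond the axis are not drawn. Bottom, the same ratio for the 10 genes with exact 95% counting intervals; the dashed line is the protein-coding median of 0.17, and only Fosl1, Jun and Atf3 lie wholly to its right.

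On the log2(TPM + 1) scale, which understates the change of low genes, Jun differed by 0.78, Atf3 by 0.54 and Fosl1 by 0.36, replicate 2 minus replicate 1. The other values ran from 0.36 for Junb down to -0.01 for Egr2. None of the 10 reached a 2-fold difference in either direction, against 3.24% higher and 0.866% lower of the 11436 genes whose mean reached 1 TPM. Fosb, Fosl1 and Egr2 had means under 1 TPM and lie outside those 11436 genes. On this scale a gene under 1 TPM in replicate 1 cannot be 2-fold lower, which covers Atf3, Fosb, Fosl1 and Egr2. With a pseudocount of 0.1, Jun and Fosl1 were at least 2-fold higher, against 6.79% of the same 11436 genes, and 7.18% of the 12791 protein-coding genes with 50 or more counts, which include Fosl1. By TPM 9 of 10 stood higher in replicate 2, but with TPM rescaled to nuclear protein-coding genes, edgeR TMM factors or DESeq2 size factors 4 did, namely Junb, Jun, Atf3 and Fosl1. The protein-coding median, unexpressed genes included, was 0.03 by TPM and 0 under those other scalings. The share of all genes that stood higher was not taken, so these counts are no result about the 10 genes. Jun, Atf3 and Fosl1 stood higher under every scaling run, by 0.73, 0.50 and 0.55 with TMM factors.

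Most fibroblast markers moved in the same direction as Jun, Atf3 and Fosl1. On the log2(TPM + 1) scale 9 of 12 such markers stood above the protein-coding median of 0.03, and 5 were at least 2-fold higher in replicate 2, led by Col3a1 at 1.21 and 10.47 TPM. Col1a1 stood at 7.21 and 28.84 TPM, Acta2 at 33.04 and 100.23 TPM, Col1a2 at 3.58 and 12.06 TPM and Pdgfra at 0.38 and 1.99 TPM. The summed level of the list was 203 and 281 TPM, of which Fn1 made up 154.13 and 122.22 TPM, and no count fell on Lum in either library. Like Fn1, Thy1 was lower in replicate 2, at 2.27 and 1.62 TPM. The median of 0.03 includes unexpressed genes, and 9 of the 10 genes and 4 of 8 pluripotency markers also stood above it. All 10 endoderm and trophectoderm markers stood above that median as well, with a summed 128 and 215 TPM, led by Krt8 at 72.69 and 113.57 TPM and Krt18 at 52.51 and 91.0 TPM. Dab2 stood at 0.43 and 2.77 TPM and Foxa2, the lowest, at 0.02 and 0.35 TPM. Of 8 blood cell markers 6 stood above it. Their sum was 7.28 and 16.83 TPM, with Cd68 at 6.14 and 5.3 TPM, Igkc at 0.39 and 5.37 TPM, Ighm at 0.26 and 5.27 TPM, and Lyz2 at 0.01 and 0.04 TPM. The part of these markers in the difference of Jun, Atf3 and Fosl1 was not tested. In bulk samples, more cells of a type and more RNA per cell cannot be told apart.

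The difference between the libraries also moved with GC content. Over 10402 protein-coding genes whose mean reached 1 TPM, the median difference of log2(TPM + 1) was 0.40 in the lowest of 10 GC groups and 0 in the highest. The leading transcripts of all 10 genes were richer in GC than the median gene (49.7%), from 51.4% in Egr2 to 67.1% in Jund. Jun was at 55.5%, Fosl1 at 58.5% and Atf3 at 52.2%, above 78.9%, 91.1% and 62.6% of genes, and these 3 lay high in replicate 2. Junb and Jund lay above 98.3% and 99.7% of genes in GC content, and their log2 ratios of count shares were 0.24 and 0.11. The part of GC content in these values was not tested.

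**Figure D4:**
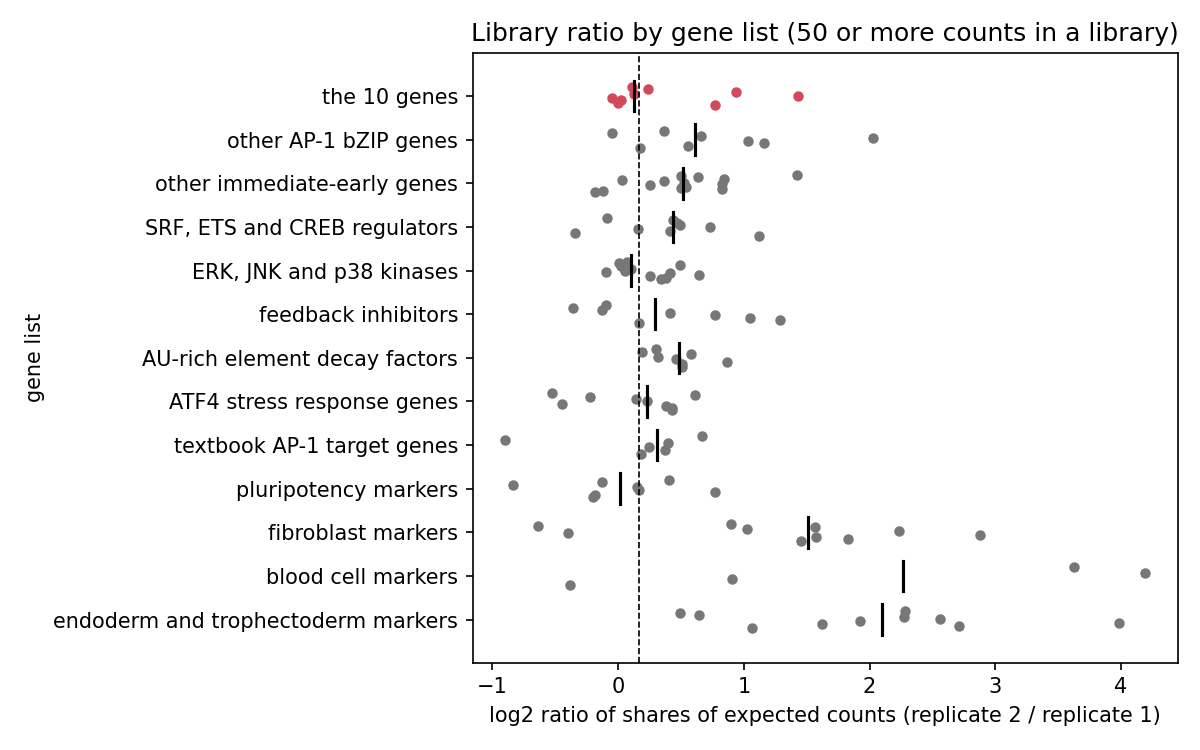
Log2 ratio of shares of expected counts (replicate 2 over replicate 1) for each gene with 50 or more counts in a library, by list; black bars are list medians and the dashed line is the protein-coding median of 0.17. The 10 genes (red, 9 of them with 50 counts) have a median of 0.13, and the fibroblast markers one of 1.51. The medians of the endoderm and trophectoderm markers and of the blood cell markers are higher still, at 2.10 and 2.26.

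In each list of related genes below, most were above 1 TPM in both libraries, against 46.3% of protein-coding genes. The lists were chosen by name, and nothing was tested. Of 12 other AP-1 leucine zipper genes 7 were above 1 TPM in both libraries, led by Atf2 (10.64 and 13.78 TPM), a stress-kinase target that pairs with Jun, Mafg (9.35 and 10.5 TPM) and Mafk (3.23 and 4.61 TPM). The lowest was Batf2 at 0.02 and 0.04 TPM. None of the 12 stood 2-fold apart on the log2(TPM + 1) scale. By share of counts, among the 8 with 50 or more counts in a library, Fosl2 was 2.23-fold higher in replicate 2. Jdp2 was 2.05-fold and Maf 4.06-fold higher, and the lowest of the 8 was Mafg at 0.97-fold. The median difference of log2(TPM + 1) of the 12 was 0.38, against 0.24 for the 10 genes and 0.03 for all protein-coding genes, including unexpressed ones. The order of the 10 genes and the typical gene turned with the scale: over the same genes, the medians with TMM factors were -0.031 and 0. By share of counts the medians were 0.12 and 0.17. There the 0.17 covered only the 12791 protein-coding genes with 50 or more counts in a library, while the 0.12 covered all 10 genes. Of 19 other immediate-early genes 13 passed, and none was 2-fold apart on the log2(TPM + 1) scale. By share of counts Phlda1, at 0.74 and 2.27 TPM, was 2.68-fold higher in replicate 2. Ccn1 stood at 22.33 and 43.92 TPM and Ccn2 at 21 and 34.26 TPM, both encoding secreted matrix proteins, and Klf2 at 11.25 and 12.72 TPM, while Egr3 had 0 and 1 count.

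All 9 SRF, ETS and CREB regulators were above 1 TPM in both libraries. Srf, whose product binds the CArG box, stood at 6.29 and 6.55 TPM, Creb1 at 6.84 and 5.76 TPM and Crem, the lowest by mean, at 1.39 and 2.1 TPM. Atf1, a close relative of Creb1, stood at 5.43 and 12.84 TPM and was the list's 1 gene at least 2-fold higher in replicate 2. Of 14 ERK, JNK and p38 pathway kinases 12 passed, among them Map2k2, a kinase that activates ERK, at 23.58 and 27.44 TPM. Mapk10, a JNK gene known from neurons, stood at 0.07 and 0.42 TPM.

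Most listed genes that dampen the pathway passed too. Of 9 feedback inhibitors 8 passed, and Dusp4, a nuclear phosphatase of ERK, stood 2-fold apart at 7.42 and 20.11 TPM. Dusp5, at 2.43 and 5.59 TPM, was 2.07-fold higher in replicate 2 by share of counts, but under 2-fold on the log2(TPM + 1) scale. Spry2 stood at 13.28 and 11.47 TPM, Dusp6 at 8.03 and 15.18 TPM and Dusp2 at 0.2 and 0.43 TPM. Of 8 factors that act on AU-rich elements 7 passed. The deadenylation scaffold Cnot1 stood at 13.33 and 20.96 TPM, Hnrnpd at 9.6 and 21.3 TPM and Khsrp at 12.1 and 16.72 TPM. The lowest was Zfp36, itself an immediate-early gene whose product destabilises AU-rich transcripts, at 0.93 and 1.54 TPM. Hnrnpd was 2-fold apart by TPM, though its share of counts differed by 0.46 on the log2 scale.

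Around Atf3, 8 of 9 genes of the ATF4 stress response passed, with Asns at 44.37 and 63.3 TPM, Atf4 at 36.75 and 54.85 TPM and Sesn2 at 18.48 and 17.53 TPM. Slc7a11 was lowest at 0.29 and 0.5 TPM. None of the 9 was 2-fold apart. Of 8 textbook AP-1 targets 6 passed, led by Spp1 at 255.07 and 151.22 TPM, Hmox1 at 20.6 and 29.62 TPM and Timp1 at 16.99 and 30.11 TPM. The matrix metalloproteinase genes Mmp3 and Mmp13 had 0 counts in both libraries. Spp1 differed by -0.75 on the log2(TPM + 1) scale, replicate 2 minus replicate 1, opposite in sign to Jun, Fosl1 and Atf3. Of the 8 targets 5 stood above the protein-coding median of 0.03, among them Hmox1 at 0.50 and Timp1 at 0.79.

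Of the 10 genes, 6 had 1 annotated transcript in the deposited tables, so only Fos, Egr1, Egr2 and Atf3 could vary in composition. The coding transcript Fos-201 took 71.8% and 68.4% of Fos output, or 70.1 ± 2.38% (SD, n = 2). The rest went to Fos-203, with 19.4% and 30.6% from 20.56 and 35.41 counts, and Fos-202, with 8.79% and 0.95% from 6.92 and 0.82 counts. Both are annotated as processed transcripts without a reading frame, so the deposited tables assign about this share of Fos TPM to noncoding models. Egr1-202, with 3 exons and 3036 bases, took 81.8% and 82.9% of Egr1 output, and the longer Egr1-201, of 4484 bases, took the rest.

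Atf3 and Egr2 were each assigned nearly wholly to 1 transcript. Atf3-201 took 100% and 99.1% of Atf3 TPM, but 70.6% and 77.9% by posterior mean TPM, which spreads weight over transcripts without reads of their own. Egr2-201 took 99.3% and 100%, from 10.94 and 8 counts, against 12.8% and 11.9% by posterior mean over 7 transcripts. The estimates thus differ most for the gene with the fewest reads, and the composition of Egr2 was not measurable at this depth.

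**Figure D5:**
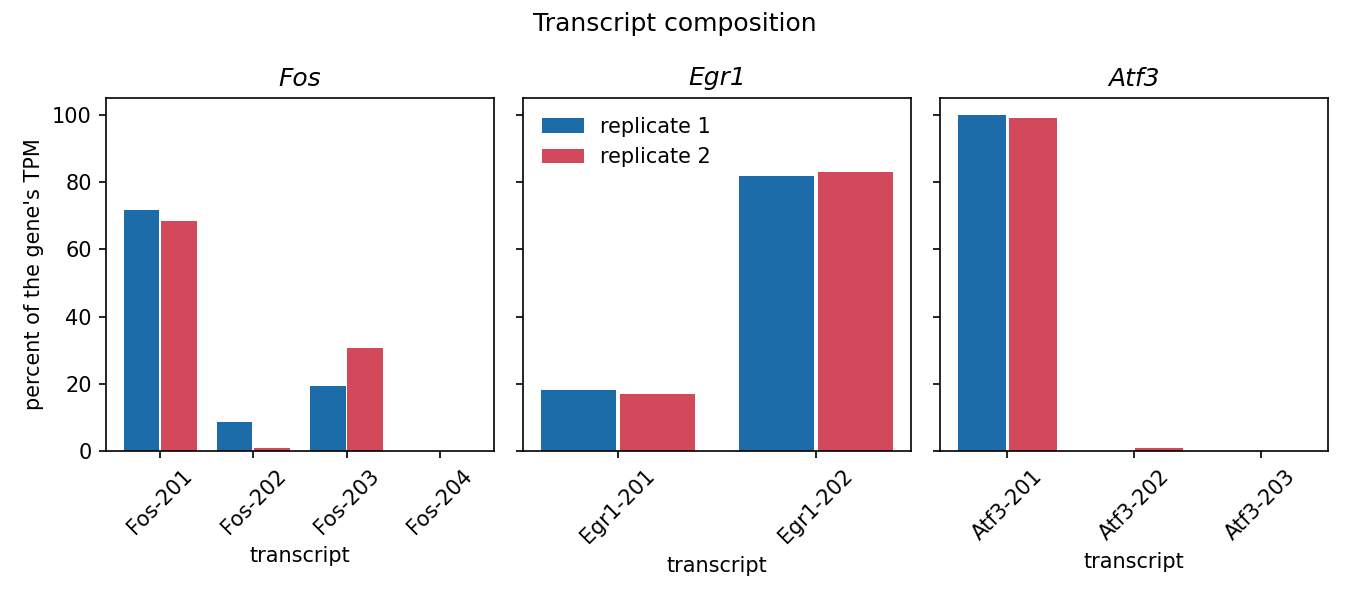
Deposited percent of each gene's TPM by transcript for Fos, Egr1 and Atf3 in replicate 1 (blue) and replicate 2 (red). Fos-203 differs most between the libraries, at 19.4% and 30.6%, while Egr1-202 stays at 81.8% and 82.9%.

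The 3' untranslated regions of the leading transcripts were searched for ATTTA, the core of AU-rich elements. It was found in 9 of 10 genes, all but Ier2, against 58.7% of 17885 protein-coding genes. By density 8 of 10 lay above the median gene, which had 0.956 per kilobase. Fos had 4 copies at 4.91 per kilobase, above 92.0% of genes, Junb 2 copies at 4.12 and Jun 4 copies at 3.24 per kilobase. Fosb, with 1 copy in 2145 bases, lay below the median at 0.466. The 30 bases that hold most copies, or the first copy where copies lie apart, are shown with ATTTA in capitals for the 3 densest genes and for Fosl1, written as DNA from the GENCODE M21 transcripts. The copies shown in Fos overlap.
Fos: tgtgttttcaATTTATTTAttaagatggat
Jun: atcATTTAtaatcataggaaagATTTAgta
Junb: atatatttgtgtATTTAacagggaggggag
Fosl1: agggcagctgctATTTAttttcctaaagag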

How the data were processed

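Per the deposited text files, reads of each library were quantified on mm10 with the M4 annotation from transcriptome alignments. Aligner and quantifier, not given in the sources used here, could not be checked. Per the file headers, the authors' tables give expected counts (estimated counts, fractional where reads are shared), TPM, FPKM, effective length, percent of gene output by transcript, and posterior mean TPM with interval bounds, used here as signal values of unstated level. Expected counts were rounded only for edgeR TMM factors, DESeq2 size factors and intervals. With 1 group, no count test was run.

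GENCODE M21 (GRCm38, the assembly of mm10) supplied symbols, biotypes and coordinates. Of 43346 genes 42462 matched. Another 26248 rows named only by a number and 97 spike-in rows were left out. Promoters came from RefSeq on GRCm38.p6. They covered 7 of the 10 genes, and that of Jund was left out for a start 1210 bases away.

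Named by rule were all 10 genes and, of each other list, the 3 highest, the lowest and those 2-fold apart on the log2(TPM + 1) scale with 50 or more counts in a library. Outside this rule, Fosl2, Jdp2, Maf, Phlda1, Dusp5, Thy1 and Mmp13 were added after their values were seen. Some marker genes that were also 2-fold apart by share of counts are left unnamed. Some kinase genes that this rule names are not reported here. Cyr61, Ctgf, Mkl1 and Mkl2 were matched as Ccn1, Ccn2, Mrtfa and Mrtfb. The genes and lists were chosen with earlier results of these data known. Ratios and intervals were tried on counts simulated with counting error only, the error that these intervals assume. That trial says nothing of the spread between real libraries. Intervals cover counting error only. Tools were edgeR 4.0.16 and DESeq2 1.42.0 in R 4.3.3, and scipy 1.17.1, pandas 2.3.3, numpy 2.4.6 and matplotlib 3.10.9 in Python 3.11.15.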

Additional observations from a re-analysis of the deposited data

How the results depend on the processing

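Of the 10 genes, the number at the TPM limit in both libraries was 6, and 6 to 7 with either library left out. It was 3 at a limit of 5 TPM, 7 at 0.5 TPM, 7 with FPKM, 7 with posterior mean TPM and 8 when rescaled. The share of protein-coding genes moved with it, from 46.3% to 24.4%, 52.6%, 51.4%, 47.3% and 59.2%. The median level of 1.9 TPM ran from 1.62 to 2.16 with either library left out and was 9.18 when rescaled to nuclear protein-coding genes. The median difference of 0.24 between the libraries became 0.11 with FPKM, -0.024 when rescaled, -0.031 with TMM factors and -0.00659 with DESeq2 size factors, whose construction removes a shared shift. The split of genes 2-fold apart was 371 higher and 99 lower by TPM, 201 and 321 with TMM factors, 221 and 288 with DESeq2 size factors, and 294 and 410 when rescaled. Of the 10 genes 0 were 2-fold higher, or 2 with a pseudocount of 0.1, and 0 were lower under every alternative run. By posterior mean, Fos-201 took 63.3% and Atf3-201 74.3%. With either library left out Fos-201 took 68.4 to 71.8%, Egr1-202 81.8 to 82.9% and Atf3-201 99.1 to 100%. Lengths of the M21 models, an alternative chosen after seeing the data, raised Jund to 12.8 TPM. Genes under 50 counts, such as Egr2, are limited by depth. No paired analysis was possible because the series has 1 group.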

Other observations

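The 4 genes with 1 exon in their leading transcript, Junb, Ier2, Jund and Jun, were also the 4 with the highest mean TPM of the 10. Among all protein-coding genes the order was the other way: 12.4% of 2309 genes with 1 exon reached a mean of 1 TPM, against 53.3% of genes with several exons. This is a description of 10 genes chosen by name, with no test. The protein-coding genes nearest to Fos in level over the 2 libraries (Euclidean distance of log2(TPM + 1)) were Ccdc102a at 2.13 and 2.48 TPM, Mbd1 at 2.15 and 2.49 TPM and Tob1 at 2.17 and 2.49 TPM. Over 2 libraries this reflects level alone.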
